A study of Arabidopsis thaliana with 4 samples.

Results

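The small (40S) subunit of the cytosolic ribosome in Arabidopsis thaliana is built from ribosomal RNA and from proteins that are each encoded by a small family of paralogous genes. The set described here holds the loci of the families SA and S2 to S15a, 51 loci in 17 families. Members were found by locus, or by the symbol of that locus, in the gene table of the array platform, and that rule uses names only, not measured values. Of the 51 loci, 32 had a named probe, 1 probe each, and 23 of these were tested because every array gave a value. A further 6 had values on some arrays, 3 had a named probe without a value, and 19 had no named probe. The 23 tested loci belong to 12 families, among 10513 genes tested in the whole series. Background shares are over all 19449 tested probes, which include probes without a gene name.

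The small subunit binds messenger RNA and holds the decoding site, and the mRNA enters and leaves it past defined ribosomal proteins. In plants the genes of most of these proteins have been duplicated, so that several loci encode nearly the same protein, and the products of paralogues are thought to take the same place in the particle. Ribosomal protein genes as a class are known for high transcript levels in growing and dividing tissue, and the early endosperm, which feeds the embryo, is such a tissue.

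The study compared endosperm, cut out by laser capture microdissection from sections of siliques (the seed pods) at 4 days after pollination, with 1 common reference RNA. Per the series' design text, the reference came from the tissue left on a slide once the endosperm had been removed, while the sample descriptions speak of whole silique RNA. The sources used here give no genotype, strain or growth conditions and name no treatment. There were 3 endosperm samples on 4 arrays with 2 channels each: replicate 1 with endosperm in Cy3, replicate 2 once in Cy3 and once in Cy5, and replicate 3 in Cy5. Whether separate plants gave the 3 samples is not in the labels, and a p-value here reflects no more than the spread among them, which may be technical. The reference is a single RNA, so its own spread does not enter any test.

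Each value is a log2 ratio of endosperm over reference, and values on the 4 arrays are written throughout in one order: replicate 1 with endosperm in Cy3, both arrays of replicate 2 (Cy3 first, then Cy5), and replicate 3 in Cy5. The numerator is not stated in the labels. The median of 12 endosperm marker genes was above 0 on every array (1.46, 1.56, 1.495 and 1.26), and 10 of the 12 passed the test as higher, so endosperm is taken as the likely numerator. Markers of the other tissues were few: AT5G67110, a gene of the silique wall, was lower in endosperm at -2.40 ± 0.22 (SD, n = 3), 1 of 3 measured seed coat markers was lower, and the 1 measured embryo marker was lower, though not without replicate 1. A mean ratio was called higher or lower at an adjusted p under 0.05 (limma, Benjamini-Hochberg over 19449 probes). In bulk RNA, a larger share of the tissue's RNA and more RNA per cell cannot be told apart. Closely related paralogues may share signal on a probe, which was not tested.

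Of the 23 tested members, 12 were higher in endosperm (52.2%), 0 were lower and 11 did not pass. Over all probes, 32.0% were called higher and 25.5% lower. The members' mean log2 ratios ran from -0.22 to 2.62 with a median of 0.67, beside a median of 0.11 over all tested probes. On the 4 arrays in order, 17, 15, 21 and 21 of the 23 lay above 0. Of the 19449 tested probes, 10852, 10918, 10435 and 10619 did. Values above 0 on all 4 arrays were found for 13 members (56.5%), compared with 40.4% of all probes. The members also spread more between replicates than the array as a whole: their median SD was 0.37, and that of all probes was 0.23. The median of the members was 0.24 in replicate 1, 0.52 in replicate 2 and 1.10 in replicate 3. Replicate 1 was read in Cy3 only and replicate 3 in Cy5 only. Within replicate 2 the members' median was 0.11 in Cy3 and 0.93 in Cy5. Sample and dye thus cannot be told apart in the members' SD or in the medians by replicate. The count of 12 became 17 without replicate 1 (all probes 31.7%), 8 without replicate 2 (23.8%) and 9 without replicate 3 (27.4%). Against a null of a fold change of 1.5, 6 of the 23 members were called higher, beside 12.2% of all probes.

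**Figure D1:**
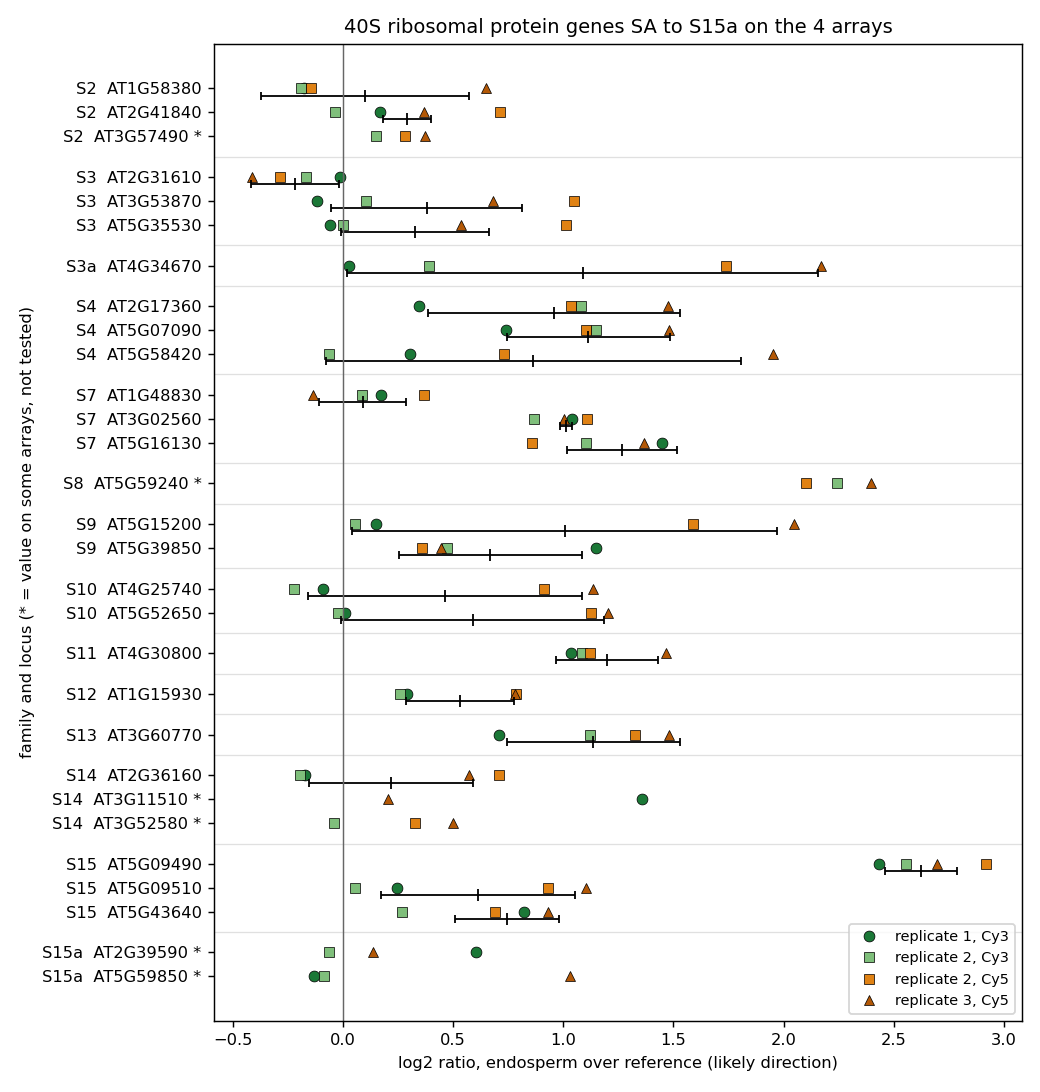
Log2 ratio of endosperm over reference (x axis) for the 23 tested 40S members and the 6 members with values on some arrays (asterisk), by family and locus (y axis). Each point is 1 array, with the dye naming the endosperm channel, and the bar is the mean ± SD over 3 replicates. AT5G09490 lies apart at 2.44 to 2.92, and many members have both Cy5 points to the right of both Cy3 points.

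The S15 family held the highest member of the set. S15 lies in the head of the subunit near the decoding site in yeast and mammalian ribosome structures. AT5G09490 had log2 ratios of 2.44, 2.56, 2.92 and 2.69, which put all 4 arrays above every other tested member. Its mean was 2.62 ± 0.16 (SD, n = 3), a 6.16-fold higher level in endosperm (limma adjusted p = 0.000125), and it ranked 58 from the top among the 19449 probes. The call held in 14 of 14 alternative settings, with adjusted p from 1.38e-05 to 0.000639. Not all of the 14 are separate checks. The fit of replicates 2 and 3 was chosen after seeing the data, and for tested members it nearly repeats the fit without replicate 1. The fit that gave the lowest adjusted p took the 4 arrays as 4 samples, although 2 of them share their RNA.

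The other measured S15 loci stood much lower. AT5G43640 had log2 ratios of 0.82, 0.27, 0.69 and 0.93, with both dyes overlapping, and a mean of 0.74 ± 0.24 (1.68-fold, limma adjusted p = 0.00585). AT5G09510 had log2 ratios of 0.24, 0.06, 0.93 and 1.10, low on both Cy3 arrays and high on both Cy5 arrays. Its mean was 0.61 ± 0.44 (1.53-fold, limma adjusted p = 0.0348). That call was lost in 6 of 14 alternatives: without replicate 2 (adjusted p = 0.0839) and without replicate 3 (0.146), on the Cy3 arrays alone (0.15, adjusted p = 0.497), after centring the arrays on their medians (0.063), with a random block for replicate 2 (0.0579), and against the null of a 1.5 fold change. For AT5G43640 the same null ended the call, as did the Cy3 arrays alone (adjusted p = 0.0548).

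The S15 loci AT5G09490, AT5G09500 and AT5G09510, follow one another directly in the RefSeq gene order. The middle locus, AT5G09500, had a named probe with no value on any array, and AT1G04270, which RefSeq names RPS15, had no named probe. The next gene before the cluster, AT5G09480, had log2 ratios of -0.96, -0.66, -0.45 and -0.11, all below 0. Neighbours in the cluster thus differed on every array: AT5G09490 exceeded AT5G09510 by 2.19, 2.50, 1.99 and 1.59. The mean difference was 2.01 ± 0.36 (SD, n = 3), or 4.03-fold. Its interval, widened to a level of 99.67% for the 15 pairs compared within families, ran from 0.91 to 3.11. These intervals take the 2 probes as independent, although both were read on the same arrays. Against AT5G43640 the difference of AT5G09490 was 1.88 ± 0.34 (3.68-fold, widened interval 0.97 to 2.79). AT5G43640 and AT5G09510 differed by 0.13 ± 0.40 with a widened interval of -1.001 to 1.26, so the pair was not called.

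S7 was the other family with paralogues called different. In yeast S7 is a ubiquitination target of the Not4 ligase. AT5G16130 had log2 ratios of 1.45, 1.10, 0.86 and 1.37, high on all arrays, with a mean of 1.26 ± 0.25 (2.40-fold, limma adjusted p = 0.000863). AT3G02560 had log2 ratios of 1.04, 0.87, 1.11 and 1.004, with the smallest SD of the 23 members at a mean of 1.01 ± 0.03 (2.02-fold, limma adjusted p = 0.000898). Both calls held in 14 of 14 alternatives. The third S7 locus, AT1G48830, had log2 ratios of 0.17, 0.09, 0.37 and -0.14, below both paralogues on each array, and its mean of 0.09 ± 0.20 did not pass (limma adjusted p = 0.595). AT5G16130 exceeded AT1G48830 by 1.18 ± 0.38 (2.26-fold, widened interval 0.24 to 2.11). AT3G02560 exceeded it by 0.92 ± 0.20 (1.89-fold, widened interval 0.07 to 1.77). The first of these differences was no longer called without replicate 3 (1.01, widened interval -0.12 to 2.15) or on the Cy5 arrays alone. The second was no longer called without any 1 of the 3 replicates or on either dye alone, although its size stayed between 0.81 and 1.004. AT5G16130 and AT3G02560 differed by 0.25 ± 0.23 (widened interval -0.63 to 1.14).

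Over all 15 pairs of tested paralogues, 4 were called different in 7 families with at least 2 tested loci. The same interval called 40.6% of all pairs of named probes on the array. Both S15 pairs with AT5G09490 were called in each of the 7 alternatives run, and the third S15 pair was called in none of them.

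**Figure D2:**
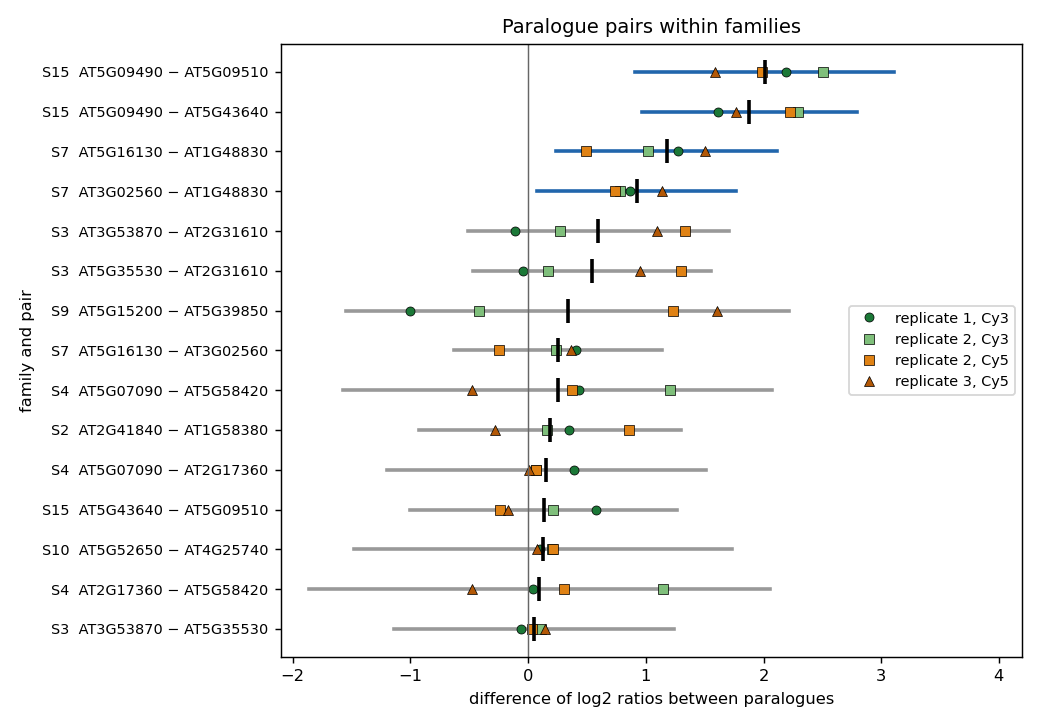
Difference of log2 ratios between 2 tested paralogues (x axis) for the 15 pairs within families (y axis). Points are single arrays, the upright black mark is the mean over 3 replicates, and the line is the interval at the level widened for 15 pairs, blue where it excludes 0. The 2 S15 pairs with AT5G09490 and 2 S7 pairs with AT1G48830 exclude 0, and the S9 pair runs from -1.0004 on the replicate 1 array to 1.60 on the replicate 3 array.

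The S11, S13 and S4 loci are described next. In yeast and mammalian structures S4 and S11 bind ribosomal RNA in the subunit body, and S13 takes part in a contact with the large subunit. AT4G30800, an S11 locus, had log2 ratios of 1.03, 1.08, 1.12 and 1.46 and a mean of 1.20 ± 0.23 (2.30-fold, limma adjusted p = 0.000949). AT3G60770, an S13 locus, had log2 ratios of 0.71, 1.12, 1.32 and 1.48 and a mean of 1.14 ± 0.39 (limma adjusted p = 0.00273). Both were above 0 on every array and called in 14 of 14 alternatives, and replicate 1 gave the lowest value of each.

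All 3 S4 loci were measured, and 2 were called higher. AT5G07090 had log2 ratios of 0.74, 1.15, 1.10 and 1.48 and a mean of 1.11 ± 0.37 (2.16-fold, limma adjusted p = 0.00263), called in 14 of 14 alternatives. AT2G17360 had log2 ratios of 0.34, 1.08, 1.04 and 1.47 and a mean of 0.96 ± 0.57 (limma adjusted p = 0.0135). Its call was lost without replicate 2 (adjusted p = 0.0523) and against a fold change of 1.5. AT5G58420 had log2 ratios of 0.31, -0.06, 0.73 and 1.95, highest in replicate 3, with both Cy5 arrays above both Cy3 arrays. Its mean of 0.86 ± 0.94 did not pass (limma adjusted p = 0.0734). It passed in 2 of 14 alternatives, on the Cy5 arrays alone (1.34, adjusted p = 0.0196) and with dye as a covariate (0.73, 0.0225). The fit with dye as a covariate took the 4 arrays as 4 samples, without a block for replicate 2. The family's 3 pairs differed by 0.09 to 0.25, with widened intervals that reached from -1.86 to 2.08, and none was called. AT5G07090 minus AT2G17360 was above 0 on all 4 arrays, at 0.39, 0.07, 0.07 and 0.0043.

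AT5G59240, 1 of the 2 S8 loci, had no value on the array of replicate 1 and so no place in the test over 3 replicates. On the other arrays its log2 ratios were 2.24, 2.10 and 2.40, on each of them higher than every tested member except AT5G09490. In a fit of replicates 2 and 3 alone, chosen after seeing the data, it had a mean of 2.28 (n = 2 replicates, limma adjusted p = 0.000355). In that fit 18 of 26 members and 31.5% of 20633 probes were called higher. The other S8 locus, AT5G20290, had no named probe.

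S2, S3 and S9 line the channel through which mRNA enters the subunit, as known from yeast and mammalian structures. No S2 or S3 locus was called over 3 replicates. AT2G31610, an S3 locus, was the only tested member with a mean below 0, at -0.01, -0.17, -0.29 and -0.41 (mean -0.22 ± 0.20, limma adjusted p = 0.213). Its paralogue AT3G53870 had log2 ratios of -0.12, 0.11, 1.05 and 0.68, near 0 on both Cy3 arrays and above it on both Cy5 arrays (mean 0.38 ± 0.44, limma adjusted p = 0.132). The third S3 locus, AT5G35530, had log2 ratios of -0.06, -0.0004, 1.01 and 0.54, the same order over the arrays (mean 0.33 ± 0.34, limma adjusted p = 0.132). Both passed in 4 of 14 alternatives, among them without replicate 1, where AT3G53870 had a mean of 0.63 (adjusted p = 0.0105) and AT5G35530 one of 0.52 (0.0186). AT3G53870 and AT5G35530 differed by 0.05 ± 0.10 (widened interval -1.14 to 1.24). Each differed from AT2G31610 by more, 0.60 ± 0.63 and 0.54 ± 0.52, and neither widened interval excluded 0 (-0.51 to 1.70 and -0.46 to 1.55). The first pair was called different without replicate 1 (0.95, widened interval 0.0033 to 1.89) and on the Cy5 arrays alone (1.21, 0.14 to 2.29).

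The S2 family had 2 tested loci. AT2G41840 had log2 ratios of 0.17, -0.03, 0.71 and 0.37, with a mean of 0.29 ± 0.11 (limma adjusted p = 0.086), and passed in 2 of 14 alternatives, on the Cy5 arrays alone (0.54, 0.0324) and with dye as a covariate (0.0482). AT1G58380, which RefSeq names XW6, had log2 ratios of -0.18, -0.19, -0.15 and 0.65, with 3 arrays below 0 and the array of replicate 3 above it (mean 0.10 ± 0.47, limma adjusted p = 0.685). The pair differed by 0.19 ± 0.42 (widened interval -0.92 to 1.30). AT3G57490 had no value in replicate 1 and 0.15, 0.28 and 0.37 on the other arrays (mean 0.30 over replicates 2 and 3, limma adjusted p = 0.106).

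Both S9 loci were called higher, with different patterns over the arrays. AT5G15200 had log2 ratios of 0.15, 0.05, 1.59 and 2.05, near 0 in Cy3 and high in Cy5. Its mean of 1.01 ± 0.96 lay at the edge of the threshold (2.01-fold, limma adjusted p = 0.0498). It passed in 5 of 14 alternatives, and on the Cy3 arrays alone its mean was 0.10 (adjusted p = 0.643). It was also lost without replicate 2 (0.0859) and without replicate 3 (0.103). AT5G39850 had log2 ratios of 1.15, 0.47, 0.36 and 0.45, high in replicate 1 and alike on the other arrays (mean 0.67 ± 0.42, limma adjusted p = 0.0227), and lost its call in 1 alternative, against a fold change of 1.5. AT5G15200 minus AT5G39850 came to -1.0004, -0.42, 1.23 and 1.60, so AT5G15200 was the lower one on both Cy3 arrays and the higher one on both Cy5 arrays. The mean difference of 0.34 ± 1.30 had a widened interval of -1.54 to 2.22, and the pair was called different on the Cy5 arrays alone.

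S10 and S12 sit at the beak of the subunit, close to the mRNA entry, in yeast and mammalian structures. AT5G52650, an S10 locus, had log2 ratios of 0.01, -0.02, 1.12 and 1.21 (mean 0.59 ± 0.60, limma adjusted p = 0.0752). Its paralogue AT4G25740 had log2 ratios of -0.09, -0.22, 0.91 and 1.13 (mean 0.46 ± 0.62, limma adjusted p = 0.148). Both were near or below 0 on the Cy3 arrays and near 1 or above on the Cy5 arrays, and they differed from each other by 0.10, 0.20, 0.21 and 0.07. The small SD of that difference, 0.07, stood beside a widened interval of -1.48 to 1.73. Both loci passed in 4 of 14 alternatives, among them without replicate 1 (0.88, adjusted p = 0.0134, and 0.74, 0.0336). AT1G15930, an S12 locus, had log2 ratios of 0.29, 0.26, 0.78 and 0.78 and a mean of 0.53 ± 0.25 (limma adjusted p = 0.0216). That call was lost without replicate 2 (0.0973), without replicate 3 (0.113), on the Cy3 arrays alone (0.21) and with the null of a 1.5 fold change.

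S3a and S14 lie on the platform, where mRNA leaves the subunit, in yeast and mammalian structures. AT4G34670, an S3a locus, had log2 ratios of 0.03, 0.39, 1.74 and 2.17, with the largest SD over replicates of the 23. Its mean of 1.09 ± 1.07 did not pass (limma adjusted p = 0.0522), and it passed in 6 of 14 alternatives, among them without replicate 1 (1.62, adjusted p = 0.00576). AT2G36160, an S14 locus, had log2 ratios of -0.17, -0.20, 0.71 and 0.57, below 0 in Cy3 and above 0 in Cy5 (mean 0.22 ± 0.37, limma adjusted p = 0.315). A further S14 locus, AT3G52580, had -0.04, 0.33 and 0.50 on the arrays of replicates 2 and 3 (mean 0.32, limma adjusted p = 0.12). AT3G11510, also S14, had 1.36 in replicate 1 and 0.21 in replicate 3 and was not tested.

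The S15a family had no locus with values on all 4 arrays. AT2G39590 had log2 ratios of 0.60 in replicate 1, -0.06 on the Cy3 array of replicate 2 and 0.14 in replicate 3. AT5G59850 had -0.13, -0.09 and 1.03 on the same arrays. With each replicate's available array, neither passed (means 0.23 and 0.27, limma adjusted p = 0.284 and 0.398). Of the remaining loci, AT3G04840 (S3a) and AT2G32060 (S12) had a named probe without any value. The families SA, S5 and S6 had no named probe, so S6, the protein phosphorylated downstream of the TOR kinase, is not described here.

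The ratios of the members moved with the dye that labelled the endosperm. Earlier results of these same data had already shown this for ribosomal protein genes, and the comparison was planned for that reason. The values below describe the pattern and are no independent test of it. On the Cy3 arrays the median of the 23 members was 0.24 in replicate 1 and 0.11 in replicate 2. On the Cy5 arrays it was 0.93 in replicate 2 and 1.10 in replicate 3. The medians of all tested probes on the same arrays were 0.12, 0.10, 0.05 and 0.07. Replicate 2 put the same RNAs on both of its arrays, so its difference lies within 1 sample, whereas replicates 1 and 3 each carry 1 dye. By the labels these arrays are separate slides with 1 dye each, so dye and slide cannot be told apart in that difference. Within replicate 2 the members' median difference, Cy5 minus Cy3, was 0.43, and 18 of 23 lay above 0 (78.3%, beside 46.9% of all probes). Differences over 0.5 were found in 11 of the 23 (47.8%, beside 7.17% of all probes), and differences below -0.5 in 0. Both Cy5 arrays exceeded both Cy3 arrays in 15 members (65.2%, all probes 20.9%). The opposite held in 2, AT2G31610 and AT5G39850 (all probes 21.5%), and the dyes overlapped in 6.

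A dye term over 4 arrays, with replicate 2 as a random block, had a median of 0.42 in the members and -0.0056 over all probes. No member passed for this term after adjustment (limma, 0 of 23 members, 0.0720% of all probes). At an unadjusted p under 0.05 there were 11 of 23, each with the higher value in Cy5, compared with 11.8% of all probes in either direction. The largest dye terms belonged to AT5G15200 (1.68 ± 0.20, SE), AT4G34670 (1.65 ± 0.23) and the S10 loci AT4G25740 (1.17 ± 0.17) and AT5G52650 (1.16 ± 0.16). AT5G16130 (-0.18 ± 0.22), AT2G31610 (-0.23 ± 0.17) and AT5G39850 (-0.34 ± 0.24) had terms below 0. What in the labelling, the slides or the probes goes with this difference was not tested.

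Calls also differed between the arrays of each dye, which hold different replicates too: Cy3 holds replicates 1 and 2, and Cy5 holds replicates 2 and 3. On the Cy3 arrays alone, 8 of 23 members were called higher and their median was 0.15, beside 30.1% of all probes. On the Cy5 arrays alone, 20 of 23 were called higher with a median of 1.02, beside 30.2% of all probes. Sample and dye cannot be told apart in these counts. Leaving out replicate 3 or replicate 1 gave 9 and 17. Those fits kept both dyes but not in balance, with more weight on Cy3 without replicate 3 and on Cy5 without replicate 1. With dye as a covariate over 4 arrays, 19 of 23 were called higher, beside 37.7% of all probes. Unlike the dye term above, this fit had no block for replicate 2. Both of its arrays counted as independent samples although they share their RNA, so its p-values are too small. The members that were called in every alternative, AT5G09490, AT5G16130, AT4G30800, AT3G60770, AT5G07090 and AT3G02560, had Cy3 means of 2.50, 1.28, 1.06, 0.92, 0.94 and 0.95. The Cy3 arrays alone were among these alternatives, so Cy3 means well above 0 follow from that choice. As a description over the same 23 probes, the members' values correlated with r = 0.88 between the Cy3 arrays and 0.83 between the Cy5 arrays, and with r from 0.46 to 0.68 across dyes, where 0.68 belonged to both arrays of replicate 2. Over all probes r was 0.87 to 0.92 for every pair of arrays.

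**Figure D3:**
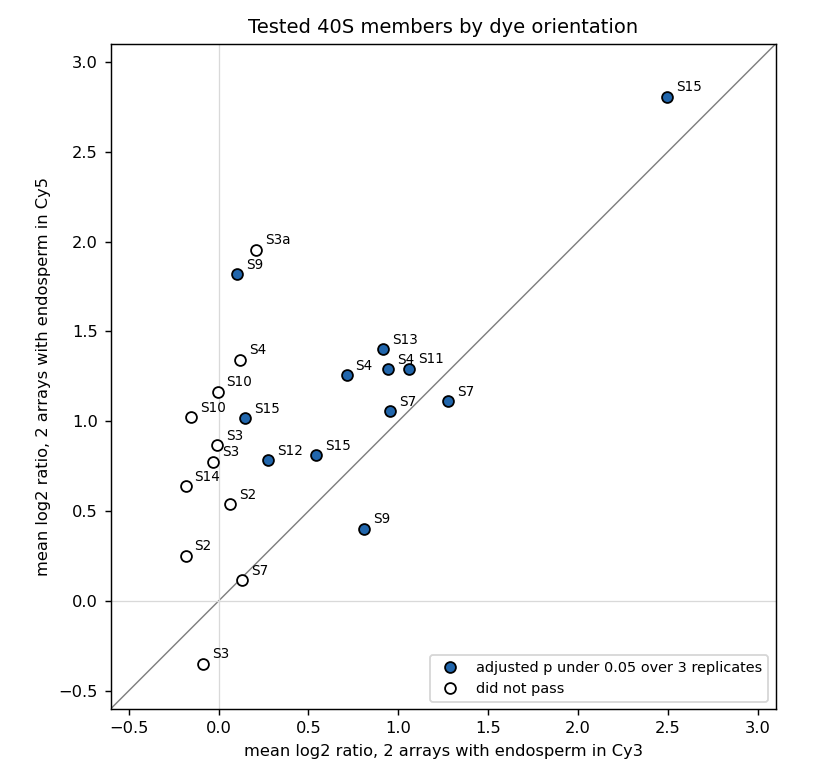
Mean log2 ratio on the 2 arrays with endosperm in Cy3 (x axis) against that on the 2 arrays with endosperm in Cy5 (y axis) for the 23 tested members, labelled by family. Blue points passed the test over 3 replicates and the diagonal marks equal values. Members near 0 in Cy3 spread up to 1.95 in Cy5, while the highest S15 locus (2.50 and 2.81) lies close to the diagonal.

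The other 40S loci, families S16 to S30 and RACK1, had 27 tested genes of 49. The test called 15 of them higher (55.6%) and 0 lower, beside 32.0% and 25.5% of all probes, and left 12 without a call. Their median was 0.60 and their range 0.08 to 1.71. The smallest p-values belonged to the S20 loci AT3G47370 (1.19 ± 0.16, limma adjusted p = 0.000718) and AT5G62300 (1.16 ± 0.19, 0.000879), the S24 locus AT3G04920 (1.15 ± 0.18, 0.000854) and the S17 locus AT3G10610 (1.29 ± 0.27, 0.000898). Their medians on the arrays were 0.55, 0.44, 0.65 and 0.95, also higher in Cy5 but closer together than those of the SA to S15a loci. None of the 27 had a mean as high as that of AT5G09490.

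Ribosome assembly factors, which process ribosomal RNA and join it with the proteins, had 13 tested genes of 40. Of these, 9 were higher (69.2%, all probes 32.0%), 0 were lower (all probes 25.5%), and the median was 1.12. Array medians of 1.37, 0.87, 0.77 and 1.17 did not separate by dye. AT5G14520, for which RefSeq lists the synonym PESCADILLO, an assembly factor of the large subunit, had a mean of 1.59 ± 0.29 (limma adjusted p = 0.000487). The other 3 with the smallest p-values were AT5G18180 (1.84 ± 0.33, 0.000384), AT2G40360 (1.53 ± 0.23, 0.000432) and AT5G27120 (1.91 ± 0.43, 0.000536). Of 5 loci for the TOR kinase complex and the S6 kinases, 1 was measured: RAPTOR1 (AT3G08850), which binds substrates of TOR, had a mean of -0.24 ± 0.36 and did not pass (limma adjusted p = 0.262).

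**Figure D4:**
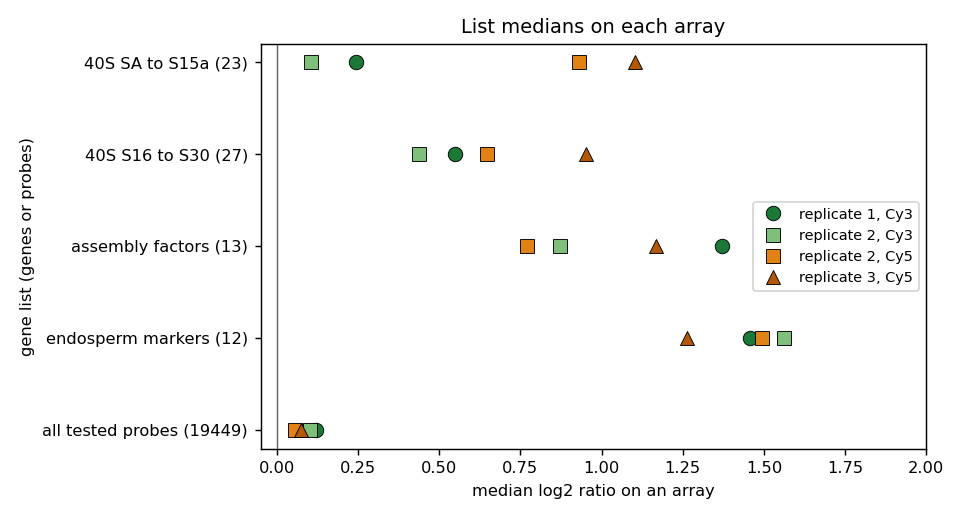
Median log2 ratio on each of the 4 arrays (x axis) for 40S members SA to S15a, the other 40S loci, assembly factors, endosperm markers and all tested probes (y axis, number of genes or probes in brackets). Each point is 1 array. The SA to S15a members have both Cy5 medians (0.93 and 1.10) apart from both Cy3 medians (0.24 and 0.11), while the assembly factors lie at 0.77 and 1.17 in Cy5 and at 1.37 and 0.87 in Cy3.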

How the data were processed

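RNA of 3 endosperm samples and 1 reference was hybridised on 4 arrays. Per the labels' protocols, 100 ng of total RNA went through 2 rounds of amplification before Cy dyes were coupled to it, which can alter proportions between transcripts. The authors' deposited values, 1 per probe and array, were taken as log2 ratios, since both signs occur around a mean near 0; for the log base, numerator, scanner, background correction, normalization and filter behind empty cells, nothing was found in the sources used here. Without intensities, dim or saturated spots could not be set apart, and precision is limited by how few arrays there are.

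The platform gene table named 14539 of 26912 probes (0 with several genes, 12373 unnamed); 14485 were matched by identifier and 53 by symbol to the RefSeq gene table, which was used for names and gene order. It names the family for 14 of the 51 members, and the other families follow the given list and general nomenclature. Of the 19449 probes with a value on all arrays, 10675 were named.

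The arrays of replicate 2 were averaged first (n = 3). The test of each mean against 0 used R 4.3.3 and limma 3.58.1 (an intercept, eBayes, two-sided, Benjamini-Hochberg). Since limma's duplicateCorrelation gave no value for 1 block of 2 arrays, the random block used correlations from moments (0.32 for the mean, 0.37 for the dye term). Intervals of paralogue differences came from the moderated variances, with probes taken as independent. The test of the mean and the pair intervals were also run on simulated ratios without a dye effect. The dye term and the alternatives were not. Array values were given for the S15 loci, the 5 highest and 5 lowest members, pairs called different, and members whose call changed under an alternative; other lists give up to 4 genes with the smallest p. Alternatives covered centring, leaving out replicates, dye, the arrays of replicate 2, empty cells, scaling, the variance prior and the null. The alternative with dye as a covariate had no block for replicate 2, so its arrays counted as independent samples. The members and lists were chosen with earlier results of these data known. Protein and promoter sequences were not used here.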

Additional observations from a re-analysis of the deposited data

Results flagged for a closer look

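In 2 members 1 array lay far from the other 3, by the gap to its neighbour divided by the whole range of the 4 arrays, which exceeded Dixon's 95% critical value. For the S2 locus AT1G58380 this ratio was 0.9459, with the array of replicate 3 high at 0.65 and the others between -0.19 and -0.15. For the S9 locus AT5G39850 it was 0.8552, with the array of replicate 1 high at 1.15 and the others between 0.36 and 0.47. Chance alone marks about 1 in 20 such groups, 23 members were examined, and 2 of the 4 arrays share their RNA. The rule was not run over all probes, so the count has no measured background and is not read as a trait of the members.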

How the results depend on the processing

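The count of 12 higher members of 23 (all probes 32.0%) became 20 on the Cy5 arrays alone (30.2%). It became 19 with dye as a covariate (37.7%) and 6 against a fold change of 1.5 (12.2%). In the other settings its lowest value was 8, without replicate 2 (23.8%) and on the Cy3 arrays alone (30.1%). Its highest was 18, but of 26 members, over replicates 2 and 3 (31.5%). No member was lower in any of the 14 alternatives, where the test over 3 replicates called 25.5% of all probes lower. The other 40S loci went from 15 of 27 to 23 higher with dye as a covariate (all probes 37.7%). Against a fold change of 1.5 they went to 7 (12.2%). The members' median of 0.67 fell to 0.15 on the Cy3 arrays alone. Paralogue pairs called different numbered 2 to 4 when 1 replicate was left out, beside 4 with all 3; leaving out replicate 3 gave 2. Signs turned for 7 members that had not passed: on the Cy3 arrays alone AT5G52650 (-0.0055), AT4G25740 (-0.16), AT3G53870 (-0.0071), AT5G35530 (-0.029), AT2G36160 (-0.18) and AT1G58380 (-0.18), and, when 1 replicate was left out, AT1G58380 (-0.17 without replicate 3 to 0.24 without replicate 1), and with each array centred AT1G48830 (-0.0023). The cause was not tested. Over the log2 ratios of the 32 loci named with a test over 3 replicates (23 members and genes of other lists) in all alternatives, 389 values kept direction and call, 27 gained a call, 24 lost one and 8 turned sign. Endosperm samples could not be paired with reference samples, because there is 1 group, set against 1 reference. Paralogue differences were taken within each replicate, but the widened intervals did not use this pairing. For the S10 pair the SD over replicates was 0.07, beside an SE of 0.34 behind the interval. For the S9 pair the SD was 1.30, beside an SE of 0.39. Replicates 1 and 3 each carry 1 dye, so sample and dye cannot be told apart in them.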
